A study of Mus musculus with 6 samples.

Results

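Interleukins are secreted cytokines that carry signals between immune cells and between epithelium, stroma and immune cells, and each acts through a receptor built of several membrane chains. Chains are often shared: the common gamma chain serves several lymphocyte interleukins, gp130 (Il6st) serves the IL-6 family, Il10rb serves IL-10 and IL-22, and Il1rap serves most IL-1 family receptors. In the gut, IL-18, IL-33 and IL-25 are made by barrier or stromal cells and are known as alarmins, whereas most other interleukins come from lymphocytes and myeloid cells.

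All 82 rows of the expression table whose symbol starts with Il followed by a digit were taken, of 25416 rows in all. They comprised 37 ligands, 41 receptor chains and 4 others, which are the soluble antagonists Il1rn, Il18bp and Il1f5 (IL-36Ra) and the amino acid oxidase Il4i1. The libraries were made from polyadenylated RNA of mouse intestine, 3 labelled HET, with the Rnf111 S254D mutant allele, and 3 labelled WT. Rnf111 (Arkadia) is a ubiquitin ligase that enhances TGF-beta signalling. The labels give no sex, age, strain, intestinal segment or number of animals, and the spread that the p-values rest on is that of the libraries, which can be technical. Values are FPKM, which scale a gene's fragments to transcript length and library total and so can be set side by side between genes, and means are given ± SD with n = 3 libraries per genotype. The test was limma on log2(FPKM + 1) over all 14065 rows that reached an FPKM of 0.5 in at least 1 library, and log2 fold changes (HET minus WT) are on that scale, where changes of weakly expressed genes come out too small. Members were called at a Benjamini-Hochberg adjusted p under 0.05.

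Rnf111 had 4.43, 4.83 and 4.25 FPKM in HET and 4.97, 5.29 and 5.34 FPKM in WT and did not pass (limma adjusted p = 0.0606), and its transcript level cannot check a substitution in the protein. Summed FPKM was 469968 to 510568 in HET and 493950 to 520095 in WT, and the lowest values implied a rough depth of 19000000 to 21900000 fragments per HET library and 20400000 to 25100000 per WT library. The tissue carried small-intestinal genes: the 9 markers tested summed to 18480 to 21080 FPKM in HET and 13100 to 15220 in WT. Of the colon list, Car1 was listed at 0 in every library, while Car4 was at 220 to 243 FPKM in HET and 196 to 209 FPKM in WT and Slc26a3 at 44.4 to 48.4 FPKM in HET and 35.4 to 39.2 FPKM in WT. Of all tested rows, 46.9% were called, 5260 (37.4%) lower and 1341 (9.53%) higher in HET. Counts of called members or markers are to be read against these shares. The split of all tested rows was 4466 lower and 1822 higher with a common sum per library, 3223 and 3761 with median-ratio scaling, and 2401 and 3127 with quantile normalization.

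The 2 alarmins that lead the results have annotated promoters, shown here because both transcripts fell. These are RefSeq windows of GRCm38.p6, from 250 bases before to 50 after each annotated start, written 5′ to 3′ along the gene. Il18 lies on the plus strand (chr9:50554450-50554749), and Il33, also on the plus strand, has an upstream (chr19:29924863-29925162) and a downstream (chr19:29945540-29945839) start. Capitals mark matches on either strand to TATAAA or to CAGAC, the core bound by Smad proteins, and no match overlapped another.
Il18: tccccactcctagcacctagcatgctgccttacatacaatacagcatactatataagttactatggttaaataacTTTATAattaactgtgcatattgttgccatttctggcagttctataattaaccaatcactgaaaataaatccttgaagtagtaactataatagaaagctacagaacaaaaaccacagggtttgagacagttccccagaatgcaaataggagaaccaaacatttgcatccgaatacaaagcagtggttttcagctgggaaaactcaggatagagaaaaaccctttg
Il33, upstream start: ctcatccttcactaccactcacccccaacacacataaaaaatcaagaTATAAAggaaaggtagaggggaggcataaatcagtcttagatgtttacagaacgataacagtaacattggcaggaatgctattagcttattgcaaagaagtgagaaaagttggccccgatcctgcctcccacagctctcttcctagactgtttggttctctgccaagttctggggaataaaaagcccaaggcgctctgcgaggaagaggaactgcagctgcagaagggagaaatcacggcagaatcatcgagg
Il33, downstream start: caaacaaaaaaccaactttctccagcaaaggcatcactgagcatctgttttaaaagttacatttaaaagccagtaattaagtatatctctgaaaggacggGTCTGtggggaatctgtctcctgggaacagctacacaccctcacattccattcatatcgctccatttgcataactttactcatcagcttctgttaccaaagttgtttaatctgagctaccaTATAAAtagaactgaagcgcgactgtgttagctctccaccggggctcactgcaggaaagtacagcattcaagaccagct

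The Smad core CAGAC was found once, in the downstream Il33 window, and 49.6% of all 32851 promoter windows of this length hold it. TATAAA, held by 13.6% of windows, began at position -29 from the downstream Il33 start, at -203 from the upstream one and, on the minus strand, at -175 from that of Il18. The AP-1 motif TGANTCA, held by 7.81% of windows on either strand, was not found in these 3 windows. A match is a description of the letters only.

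Both measured alarmins fell in the HET libraries by about the same factor, and they were the most abundant and second most abundant ligands of the WT libraries. Il18 (ENSMUSG00000039217), an IL-1 family cytokine that the gut epithelium stores as a precursor cleaved by caspase-1, was at 45.8, 33.1 and 30.0 FPKM in HET and at 82.8, 83.7 and 86.1 FPKM in WT. Its mean was 2.32-fold lower in HET (36.3 ± 8.38 FPKM in HET, 84.2 ± 1.72 FPKM in WT), with a log2 fold change of -1.21 (SE 0.14, 95% confidence interval -1.56 to -0.87, limma adjusted p = 0.000975). Every HET value lay below every WT value, and the HET libraries were further apart from each other than the WT libraries.

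Il33 (ENSMUSG00000024810), a nuclear IL-1 family cytokine of barrier epithelium, endothelium and fibroblasts that is released on cell damage, was at 8.89, 11.6 and 9.997 FPKM in HET and at 18.8, 19.8 and 23.3 FPKM in WT. It was 2.03-fold lower in HET, with a log2 fold change of -0.96 (SE 0.11, limma adjusted p = 0.000932) and no overlap of the groups. Il25 (ENSMUSG00000040770), the tuft cell alarmin that activates type 2 innate lymphoid cells, was at 0.0459, 0.0942 and 0 FPKM in HET and at 0.0366, 0.0677 and 0.0606 FPKM in WT. That is roughly 0 to 2.2 fragments a library, so no difference in Il25 was detectable at this depth.

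Epithelial markers did not move with Il18: of 10 epithelial markers 0 were lower and 2 higher in HET by limma (0 and 3 at an unadjusted p under 0.05), and their summed level was 4988 to 5778 FPKM in HET and 5051 to 5189 FPKM in WT. Per library, Il18 came to 0.919%, 0.612% and 0.519% of that sum in HET and to 1.64%, 1.61% and 1.69% in WT, so the groups stayed apart. These ratios to marker sums, and the ratios between members given further on, were chosen after the values were seen and carry no test.

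Markers of endothelium and fibroblasts, cells known to hold Il33, fell with it, whereas the epithelial markers given above did not. All 9 endothelial markers were lower in HET (summed level 15.97 to 23.26 FPKM in HET, 35.44 to 39.17 FPKM in WT), as were all 9 fibroblast markers (23.78 to 36.47 FPKM in HET, 137.9 to 157.5 FPKM in WT). Il33 stood at 44.7% to 55.7% of the endothelial sum in HET and at 51.8% to 59.4% in WT, which overlapped. Against the fibroblast sum it stood at 27.4% to 37.4% in HET and at 12.9% to 14.8% in WT, since that sum fell further than Il33. All 7 smooth muscle markers were lower too (192.8 to 234.1 FPKM in HET, 334.9 to 366.4 FPKM in WT). Il33 was 4.21% to 6.03% of their sum in HET and 5.46% to 6.35% in WT, which overlapped. The part of these cell types in the Il33 difference was not tested, and in bulk tissue fewer cells of a type and less RNA per cell cannot be told apart.

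**Figure D1:**
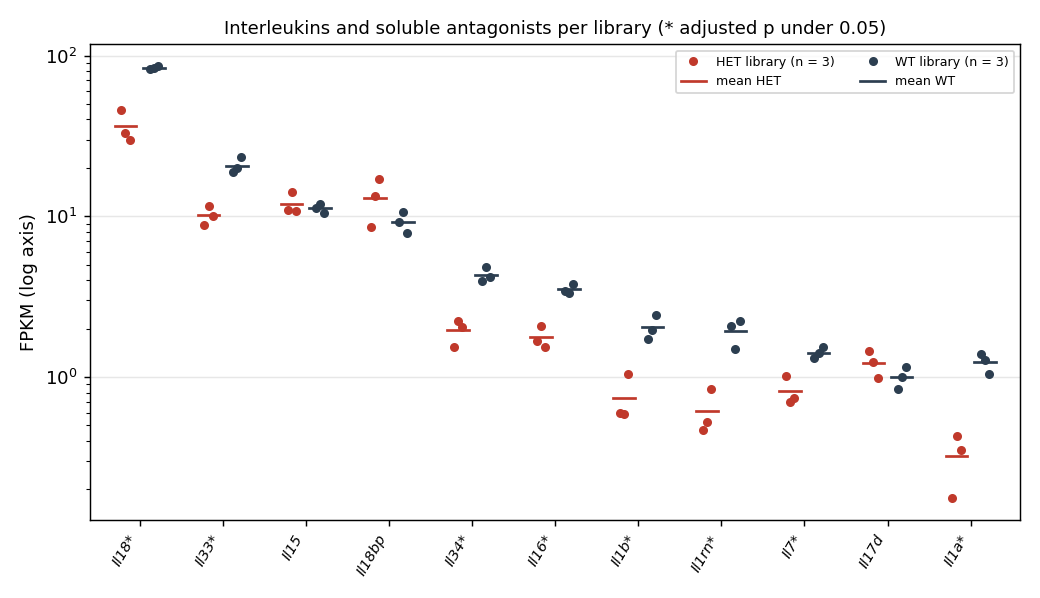
FPKM on a log axis for the 9 interleukins and 2 soluble antagonists that reached 0.5 FPKM, with 1 point per library, HET left of WT for each gene and a bar at each mean; an asterisk marks an adjusted p under 0.05. Il18 and Il33 sit highest in WT and lower in every HET library, while Il15, Il18bp and Il17d overlap between genotypes.

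Beside the alarmins, only Il15 among the other ligands exceeded 5 FPKM on average in either genotype. Of the 37 ligands 9 reached the floor of 0.5 FPKM, and 7 of these were lower, 0 higher and 2 not called in HET, where 37.4% of all tested rows were called lower and 9.53% higher. At an unadjusted limma p under 0.05 the count of higher ligands was again 0. The median log2 fold change was -0.76 for the 9 ligands and -0.71 for the 7 without the alarmins, beside -0.14 for all tested rows. Il18 alone held 49.5% to 62.7% of the summed FPKM of all 37 ligands in HET and 63.7% to 65.2% in WT. Together Il18, Il33 and Il15 made up 87.2% to 89.7% of that sum in HET and 88.5% to 88.9% in WT.

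Among immune cell ligands the inflammatory IL-1 cytokines were lower in every HET library. Il1a, an IL-1 form active without cleavage, was at 0.176, 0.433 and 0.353 FPKM in HET and at 1.39, 1.28 and 1.04 FPKM in WT, 3.85-fold lower in HET (limma adjusted p = 0.00139). Il1b, the myeloid IL-1 form that caspase-1 cleaves, was at 0.595, 0.592 and 1.05 FPKM in HET and at 1.73, 1.96 and 2.44 FPKM in WT, 2.74-fold lower (adjusted p = 0.00298). Il1a rested on roughly 6.6 fragments in its lowest library and Il1b on roughly 15.4, and Il1a reached the floor in WT libraries alone. Il1rn, the antagonist that occupies the same receptor, was 3.17-fold lower as well, at 0.469, 0.527 and 0.842 FPKM in HET and 2.09, 1.51 and 2.24 FPKM in WT (adjusted p = 0.0021). The agonist and the antagonist thus moved together: the ratio of Il1b to Il1rn was 1.13 to 1.27 in HET and 0.826 to 1.30 in WT, which overlapped.

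Il34 and Il16, cytokines that act on macrophages and on CD4+ cells, were also lower. Il34, a second ligand of the macrophage receptor Csf1r, was at 1.54, 2.25 and 2.06 FPKM in HET and at 3.96, 4.85 and 4.20 FPKM in WT, 2.22-fold lower (log2 fold change -0.86, limma adjusted p = 0.00127). Csf1r itself was 2.24-fold lower (7.58 ± 1.002 FPKM in HET, 17.0 ± 0.470 FPKM in WT, adjusted p = 0.0003). Il16, a chemoattractant of CD4+ cells, was at 1.68, 2.09 and 1.55 FPKM in HET and at 3.45, 3.33 and 3.82 FPKM in WT, 1.99-fold lower (adjusted p = 0.00119).

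The gamma-c family ligands that reached the floor were Il7 and Il15. Il7, a lymphocyte survival factor made by epithelium and stroma, was at 1.02, 0.696 and 0.736 FPKM in HET and at 1.32, 1.41 and 1.53 FPKM in WT, 1.74-fold lower (log2 fold change -0.42, limma adjusted p = 0.00768), a call lost with quantile normalization (-0.10). Il15, which maintains intraepithelial lymphocytes and NK cells, was at 10.9, 14.1 and 10.8 FPKM in HET and at 11.3, 11.9 and 10.5 FPKM in WT. Its log2 fold change was 0.07 with a 95% confidence interval of -0.18 to 0.32 (adjusted p = 0.604), and the groups overlapped. Il17d, an IL-17 family member, overlapped as well (1.23 ± 0.233 FPKM in HET, 1.0002 ± 0.155 FPKM in WT, adjusted p = 0.242).

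The remaining 28 ligands stayed below 0.5 FPKM in every library, and 10 of them were listed at 0 throughout. Listed at 0 were Il3, Il4, Il9, Il19, Il20, Il24, Il31, Il1f6 (IL-36alpha), Il1f8 (IL-36beta) and Il1f10. Below the floor were the T cell and innate lymphoid cytokines Il2, Il5, Il13, Il17a, Il17f, Il21 and Il22, the myeloid cytokines Il6, Il10, Il12a, Il12b, Il23a and Il27, and Il11, Il17b, Il17c, Il25 and Il1f9 (IL-36gamma). The type 2, type 17 and IL-22 effector cytokines were thus under the floor in both genotypes.

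Of the 41 receptor chains 29 reached the floor, and 21 of these were lower, 1 higher and 7 not called in HET, where 37.4% of all tested rows were lower and 9.53% higher. Their median log2 fold change was -0.42, beside -0.14 for all tested rows. A WT mean above 10 FPKM was held by 6 chains, namely Il17rc, Il10rb, Il13ra1, Il22ra1, Il4ra and Il2rg. In HET the highest chain was Il10rb (67.4 ± 6.28 FPKM), followed by Il17rc (52.9 ± 4.002) and Il13ra1 (38.6 ± 4.96), and in WT it was Il17rc (61.5 ± 2.09 FPKM), followed by Il10rb (56.6 ± 0.537) and Il13ra1 (50.9 ± 4.52). Il4ra, the next chain in HET and the one after Il22ra1 in WT, lay far under these. The 12 chains under the floor were Il2ra, Il5ra, Il9r, Il11ra2, Il13ra2, Il17re, Il18rap, Il23r, Il31ra and Il1rapl1, with Il20ra and Il1rapl2 listed at 0 throughout.

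**Figure D2:**
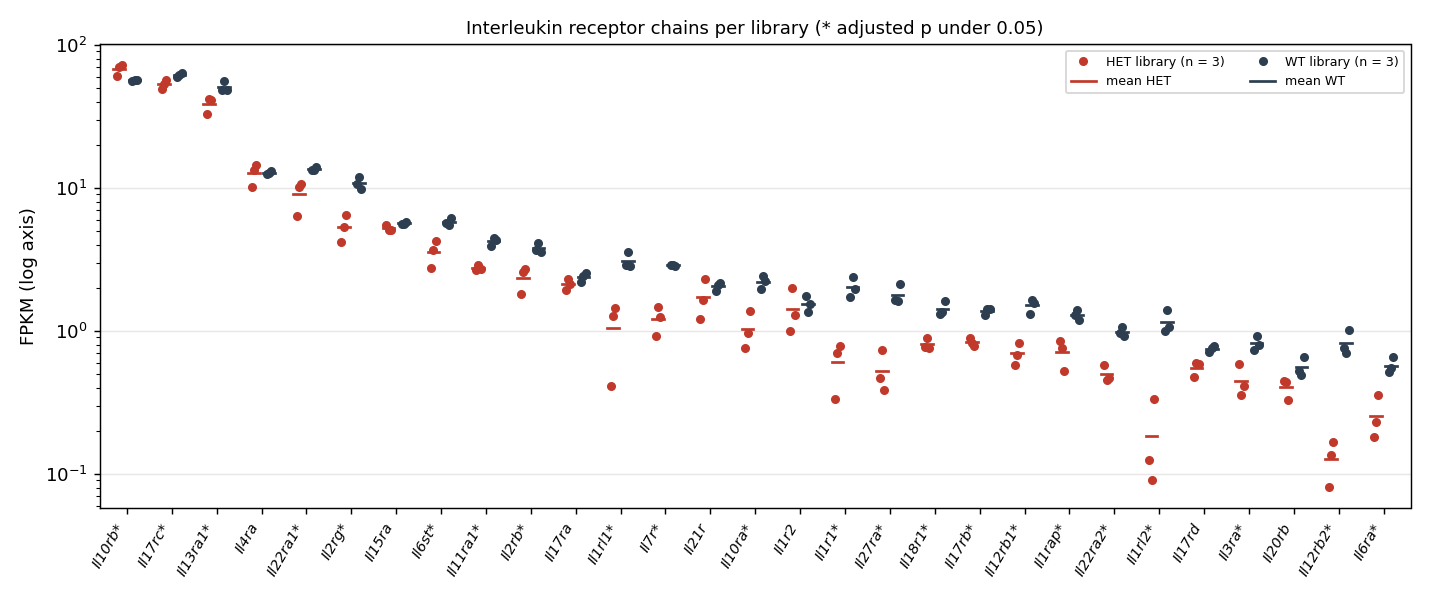
FPKM on a log axis for the 29 receptor chains that reached 0.5 FPKM, ordered by level, with 1 point per library, HET left of WT and a bar at each mean; an asterisk marks an adjusted p under 0.05. Il10rb is the chain with all HET points above all WT points, and the gap between genotypes is widest for Il12rb2 and Il1rl2 among the weakly expressed chains. Both of these reached the floor in WT libraries alone, which favours a wide gap.

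Of 6 measured receptor chains of the IL-1 family 5 were lower, 0 higher and 1 not called in HET. The shares of all tested rows were 37.4% lower and 9.53% higher. Il1r1, the signalling IL-1 receptor, was at 0.336, 0.703 and 0.782 FPKM in HET and at 1.74, 2.37 and 1.95 FPKM in WT, 3.33-fold lower (log2 fold change -0.92, limma adjusted p = 0.00184). Il1r2, the decoy receptor that binds IL-1 without signalling, was at 1.005, 1.98 and 1.30 FPKM in HET and at 1.76, 1.36 and 1.54 FPKM in WT (adjusted p = 0.65). The ratio of the signalling receptor to the decoy was 0.335, 0.354 and 0.601 in HET and 0.989, 1.74 and 1.27 in WT, without overlap. Il1rl2, the IL-36 receptor, was at 0.126, 0.0909 and 0.336 FPKM in HET and at 0.998, 1.40 and 1.06 FPKM in WT (adjusted p = 0.0012). Its fold was 6.25, and 10.6 without HET replicate 3. Il1rl2 rested on roughly 7.8 fragments in its lowest library and reached the floor in WT libraries alone, which favours a large fold.

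The ligand-binding receptor chains of all 3 alarmins were lower in HET, but Il18r1, Il17rb and the partner chain Il1rap were not called with quantile normalization (log2 fold changes -0.10, -0.05 and -0.11). Il1rl1 (ST2), the IL-33 receptor of mast cells, type 2 innate lymphoid cells and regulatory T cells, was at 0.410, 1.28 and 1.44 FPKM in HET and at 2.89, 3.59 and 2.84 FPKM in WT. It was 2.98-fold lower (log2 fold change -1.04, SE 0.20, limma adjusted p = 0.00641), and HET replicate 1 lay well under the other HET libraries. Il1rap, its partner chain, was 1.81-fold lower (0.715 ± 0.171 FPKM in HET, 1.30 ± 0.113 FPKM in WT, adjusted p = 0.00884). Il18r1, the IL-18 receptor, was at 0.777, 0.892 and 0.760 FPKM in HET and at 1.30, 1.36 and 1.62 FPKM in WT (1.76-fold lower, adjusted p = 0.00424). Il17rb, the IL-25 receptor that tuft cells also carry, was at 0.899, 0.824 and 0.783 FPKM in HET and at 1.30, 1.42 and 1.43 FPKM in WT (1.65-fold lower, adjusted p = 0.00343).

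Mast cell markers, by contrast with Il1rl1, rose: all 6 tested were higher in HET, with a summed level of 32.95 to 66.09 FPKM in HET and 2.05 to 3.332 FPKM in WT. Of 9 tuft cell markers 6 were lower and 0 higher, and Il17rb was 3.59% to 4.15% of their sum in HET and 4.04% to 4.33% in WT, which overlapped. Of 6 measured markers of innate lymphoid cells, Il1rl1 itself among them, 4 were lower (Il1rl1, Kit, Klrg1 and Tbx21), 1 higher and 1 not called. Against the summed fibroblast markers Il1rl1 stood at 1.73% to 4.01% in HET and at 1.81% to 2.60% in WT, which overlapped. The part of these cell types in the receptor levels was not tested.

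IL-18 signalling is restrained by Il18bp, a soluble protein that captures IL-18. Il18bp was at 8.63, 13.4 and 17.1 FPKM in HET and at 9.24, 10.6 and 7.92 FPKM in WT, and it did not pass (log2 fold change 0.41, 95% confidence interval -0.11 to 0.94, limma adjusted p = 0.162). Without HET replicate 1, the lowest HET library, its log2 fold change was 0.66 and it passed. The ratio of Il18 to Il18bp was 5.31, 2.47 and 1.76 in HET and 8.96, 7.92 and 10.9 in WT, without overlap. Exons of Il18bp and Numa1 overlap on opposite strands in the reference annotation, and the sources used here do not give the strand setting of the counting.

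Of 7 measured receptor chains of the gamma-c family and its IL-4 and IL-13 relatives, 4 were lower, 0 higher and 3 not called in HET. Of all tested rows, 37.4% were lower and 9.53% higher. Il2rg, the common gamma chain, was at 4.15, 5.35 and 6.44 FPKM in HET and at 10.7, 11.9 and 9.83 FPKM in WT, 2.03-fold lower (log2 fold change -0.92, limma adjusted p = 0.00225). Il7r, the IL-7 receptor of T cells and innate lymphoid cells, was at 0.924, 1.46 and 1.24 FPKM in HET and at 2.89, 2.91 and 2.83 FPKM in WT, 2.38-fold lower (adjusted p = 0.000916). Il2rb, shared by IL-2 and IL-15, was at 1.80, 2.58 and 2.70 FPKM in HET and at 3.71, 4.15 and 3.55 FPKM in WT, 1.61-fold lower (adjusted p = 0.0102, not called with quantile normalization, at -0.27). Il15ra, which presents IL-15 to neighbouring cells, was 5.22 ± 0.211 FPKM in HET and 5.66 ± 0.126 FPKM in WT and did not pass (adjusted p = 0.18). Nor did Il21r (1.73 ± 0.562 FPKM in HET, 2.05 ± 0.130 FPKM in WT, adjusted p = 0.319), which passed without HET replicate 3 (log2 fold change -0.34). The ratio of Il2rg to Il15 was 0.382, 0.380 and 0.594 in HET and 0.945, 0.997 and 0.937 in WT.

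T cell markers were lower over the same libraries, with 10 of 11 lower and 0 higher in HET and a summed level of 38.12 to 47.5 FPKM in HET and 74.67 to 83.73 FPKM in WT. Il2rg was 10.9% to 15.5% of that sum in HET and 13.2% to 14.2% in WT, and Il2rb was 4.72% to 6.51% in HET and 4.67% to 4.95% in WT, so both overlapped. Il16 overlapped too, at 3.73% to 4.41% in HET and 3.97% to 5.11% in WT. Il7r was 2.42%, 3.08% and 2.99% of it in HET and 3.64%, 3.48% and 3.79% in WT, which did not overlap. The part of T cell content in these differences was not tested.

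**Figure D3:**
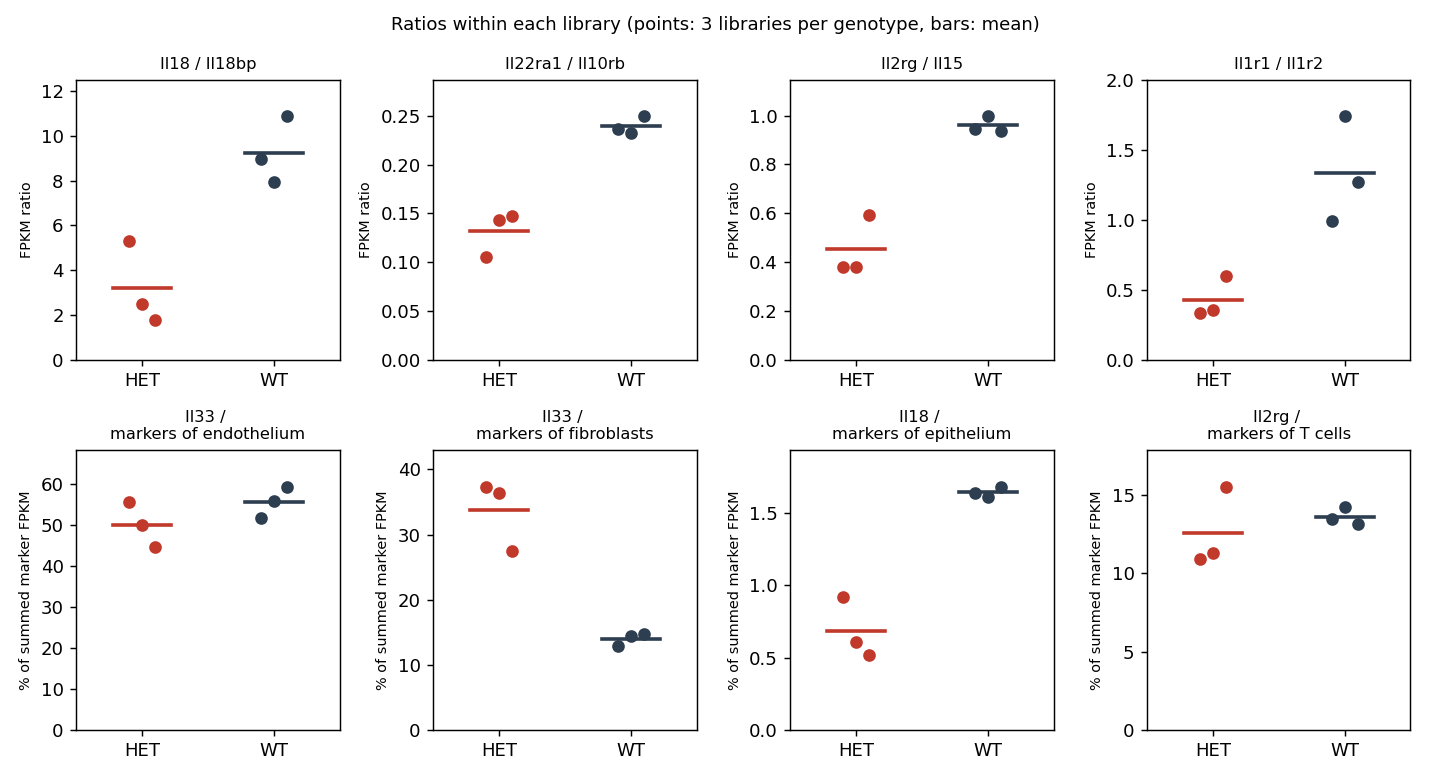
Ratios computed within each library, with 1 point per library, HET left of WT and a bar at each mean; the upper panels divide the FPKM of one member by that of another, the lower panels give a member as a percent of a summed marker level. Il18 stays lower in HET against Il18bp and against epithelial markers, Il33 overlaps between genotypes against endothelial markers, and Il2rg overlaps against T cell markers but not against Il15, while Il33 is higher in HET against fibroblast markers.

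The receptor chains Il12rb2, Il12rb1 and Il27ra, known from T and NK cells, were lower in HET, while the IL-23-specific chain Il23r was under the floor. Il12rb2, the inducible IL-12 chain of type 1 lymphocytes, was at 0.0807, 0.135 and 0.167 FPKM in HET and at 0.764, 0.699 and 1.01 FPKM in WT, 6.48-fold lower (limma adjusted p = 0.00108). Il12rb1, which IL-12 and IL-23 share, was at 0.577, 0.684 and 0.827 FPKM in HET and at 1.32, 1.66 and 1.56 FPKM in WT, 2.17-fold lower (adjusted p = 0.00229). Il27ra was at 0.467, 0.734 and 0.383 FPKM in HET and at 1.63, 1.62 and 2.12 FPKM in WT, 3.40-fold lower (adjusted p = 0.00128). Il12rb2 rested on roughly 4.6 fragments in its lowest library, and its fold is correspondingly rough. It also reached the floor in WT libraries alone, which favours a large fold. In the reference annotation Il27ra overlaps Palm3 and Il12rb2 overlaps Serbp1 on the opposite strand. Exons of Il1a, Il1b, Il1rap, Il3ra, Il4ra, Il6ra, Il7, Il11ra1, Il16, Il17rb and Il34 also overlap other genes on the opposite strand.

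All 4 receptor chains of the IL-6 family that reached the floor fell, where 37.4% of all tested rows were lower. Il6st, the shared gp130 chain, was at 2.73, 3.70 and 4.22 FPKM in HET and at 5.67, 5.49 and 6.19 FPKM in WT, 1.63-fold lower (log2 fold change -0.59, limma adjusted p = 0.00827). Il6ra, which binds IL-6, was at 0.180, 0.230 and 0.355 FPKM in HET and at 0.513, 0.550 and 0.655 FPKM in WT (adjusted p = 0.0143, not passing without WT replicate 3 or with quantile normalization). Il6ra reached the floor in WT libraries alone. Il11ra1, the stromal IL-11 receptor, was at 2.68, 2.88 and 2.71 FPKM in HET and at 3.94, 4.45 and 4.35 FPKM in WT, 1.54-fold lower (adjusted p = 0.00142). Il11ra1 has a near-identical copy, Il11ra2, so the split of fragments between them is uncertain.

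The chains of the IL-22 receptor moved apart. Il10rb, the chain shared by the receptors of IL-10, IL-22 and type III interferons, was the member that rose, at 60.2, 70.1 and 71.8 FPKM in HET and 56.2, 57.2 and 56.5 FPKM in WT (log2 fold change 0.24, SE 0.08, limma adjusted p = 0.0369). That call held without HET replicate 1 and was lost when any 1 of the other 5 libraries was left out, with log2 fold changes of 0.19 to 0.32. Exons of Il10rb overlap Gm21970 on the same strand in the reference annotation, and those of Il2rg overlap Gm20489, so fragments there cannot be told apart. Il22ra1, the epithelial IL-22 chain that pairs with Il10rb, was at 6.35, 10.1 and 10.6 FPKM in HET and at 13.3, 13.3 and 14.1 FPKM in WT, 1.51-fold lower (log2 fold change -0.57, adjusted p = 0.0275). Its call was lost when any 1 WT library was left out and under each of the 3 other scalings and without a filter on low values, and its log2 fold change lay between -0.69 and -0.36 over all settings tried. The ratio of Il22ra1 to Il10rb, which a single factor per library cannot move, was 0.106, 0.144 and 0.148 in HET and 0.237, 0.233 and 0.250 in WT, without overlap.

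Il10ra, the IL-10-specific chain of leukocytes, was at 0.756, 0.973 and 1.37 FPKM in HET and at 1.95, 2.44 and 2.23 FPKM in WT, 2.13-fold lower (limma adjusted p = 0.00468). Markers of macrophages and dendritic cells were lower beside it, 11 of 14 with 0 higher and a summed level of 77.68 to 124.7 FPKM in HET and 182 to 186.3 FPKM in WT. Il10ra was 0.916% to 1.10% of that sum in HET and 1.07% to 1.31% in WT, which overlapped, and Il1b was 0.558% to 0.841% in HET and 0.945% to 1.34% in WT, which did not. Whether fewer such cells account for the Il10ra level was not tested. Il22ra2, a soluble receptor that neutralises IL-22, was 1.96-fold lower (0.501 ± 0.0696 FPKM in HET, 0.983 ± 0.0682 FPKM in WT, adjusted p = 0.00353), which was lost with quantile normalization (-0.10), and Il20rb did not pass (0.406 ± 0.0673 FPKM in HET, 0.555 ± 0.0858 FPKM in WT, adjusted p = 0.147).

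The abundant chains for type 2 and IL-17 cytokines showed smaller differences. Il13ra1, which joins Il4ra to form the IL-13 receptor, was at 32.9, 41.9 and 41.1 FPKM in HET and at 48.5, 56.1 and 48.1 FPKM in WT, 1.32-fold lower (log2 fold change -0.39, limma adjusted p = 0.0232). Il4ra was at 10.2, 13.4 and 14.4 FPKM in HET and at 12.4, 12.8 and 13.05 FPKM in WT (log2 fold change -0.02, 95% confidence interval -0.30 to 0.25, adjusted p = 0.886). Il17rc, the partner of Il17ra in the IL-17A receptor, was at 48.9, 52.9 and 56.9 FPKM in HET and at 59.5, 61.4 and 63.6 FPKM in WT, 1.16-fold lower (log2 fold change -0.22, adjusted p = 0.0402). The calls of Il13ra1 and Il17rc were lost under all 3 other scalings, at -0.18 and -0.01 with median-ratio scaling, and without WT replicate 1 or 2. That of Il17rc was also lost without WT replicate 3 or HET replicate 1 or 2. Il17ra (2.12 ± 0.176 FPKM in HET, 2.39 ± 0.185 FPKM in WT, adjusted p = 0.219) and Il17rd (0.551 ± 0.0666 FPKM in HET, 0.749 ± 0.0349 FPKM in WT, adjusted p = 0.0634) did not pass. Il3ra, the IL-3 receptor chain, was 1.82-fold lower (0.450 ± 0.118 FPKM in HET, 0.819 ± 0.0927 FPKM in WT, adjusted p = 0.0166), which was lost without HET replicate 2 or WT replicate 2 and with quantile normalization.

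**Figure D4:**
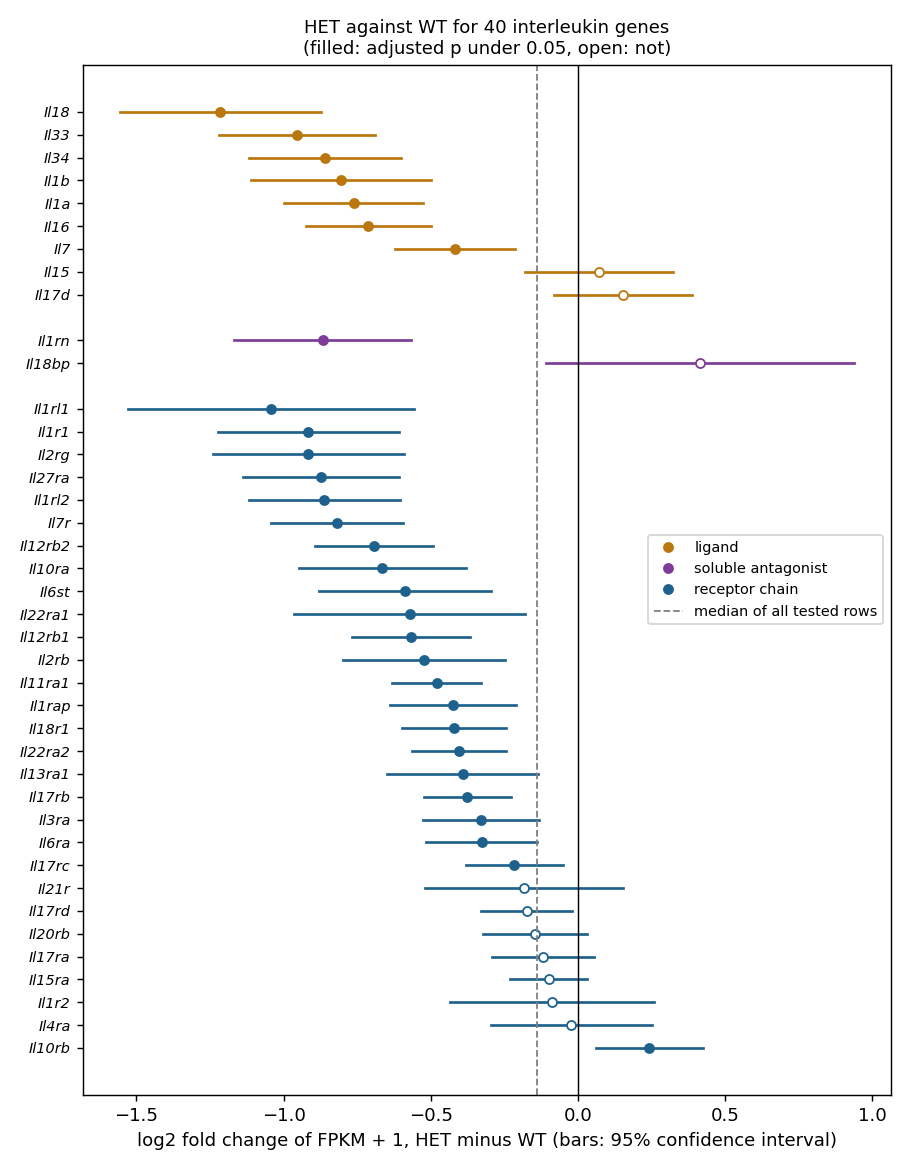
Log2 fold change of FPKM + 1 (HET minus WT) with its 95% confidence interval for the 40 members that reached 0.5 FPKM, grouped into ligands, soluble antagonists and receptor chains; filled points passed at an adjusted p under 0.05 and the dashed line marks the median of all tested rows at -0.14. Of the members 29 are filled on the left of 0 and Il10rb is filled on the right.

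Over all 40 members that reached the floor, 29 were lower, 1 higher and 10 not called, which is 72.5% lower where the background of all 14065 tested rows was 37.4%. The floor itself favours such a count, since 5 members (Il12rb2, Il1a, Il1rl2, Il20rb and Il6ra) reached it in WT libraries alone and 0 in HET libraries alone. Of the 35 members that reached it in both genotypes, 25 were lower and 1 higher. The matching share of all rows that reached it in both genotypes was not counted. Rows at a level like that of the members were also more often lower: 52.4% of tested rows with a mean of 1 to 3 FPKM were lower, as were 13 of the 17 members in that band, and 23.0% of rows from 10 FPKM up, as were 5 of 9 members. The HET values lay wholly below the WT values for 32 of the 40 members, where 45.6% of all tested rows did, and wholly above for 1, where 14.2% did. Just above the floor, the highest single values of Il20rb and Il6ra were 0.652 and 0.655 FPKM, and just below it those of Il18rap and Il17re were 0.479 and 0.453 FPKM.

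The members varied more among the HET libraries. The median coefficient of variation was 21.3% in HET and 9.27% in WT, and it was larger in HET for 38 of the 40 members. The same count was not made over all tested rows, so it cannot be called a trait of the members. HET replicate 1 held the lowest HET value for 20 of the 29 receptor chains and for 3 of the 9 ligands.

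Genes that act with the interleukin receptors were counted from lists chosen with earlier results of these data known, and each count is to be read against the 37.4% of all tested rows that were lower and the 9.53% that were higher. Of 14 measured partner chains and relatives that carry other symbols, 11 were lower and 0 higher in HET, with a median log2 fold change of -0.56. Without 1 library 9 to 10 were lower and 0 higher. Beside Csf1r the lower genes were led by Csf2ra, the GM-CSF receptor (3.57 ± 0.180 FPKM in HET, 6.91 ± 0.0387 FPKM in WT, limma adjusted p = 0.000183), Ebi3, the subunit that completes IL-27 and IL-35 (3.08-fold lower), and the gp130 ligand Clcf1 (2.80-fold lower). The list's summed level was 24.87 to 29.47 FPKM in HET and 48.82 to 52.27 FPKM in WT.

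Downstream, 9 of 15 genes of the JAK, STAT and SOCS list were lower and 0 higher (median log2 fold change -0.24), against 6 and 1 with median-ratio scaling and 4 and 0 with quantile normalization. Jak3, the kinase bound to the common gamma chain, was 1.93-fold lower (2.75 ± 0.152 FPKM in HET, 5.31 ± 0.200 FPKM in WT, limma adjusted p = 0.000266). The cytokine-induced inhibitors Cish and Socs3 were 2.33-fold and 2.29-fold lower, at 2.28 ± 0.150 FPKM in HET against 5.30 ± 0.695 FPKM in WT and at 8.08 ± 2.09 FPKM in HET against 18.5 ± 1.92 FPKM in WT, and Stat5b was 1.46-fold lower, a call lost with quantile normalization (-0.20). Of 14 genes listed for signalling of IL-1 and IL-17 receptors 7 were lower and 0 higher, with a median log2 fold change of -0.20. The counts were 4 and 0 with a common sum, 4 and 1 with median-ratio scaling and 3 and 0 with quantile normalization, and without 1 library 4 to 6 were lower, with 4 without WT replicate 2 or 3. Irak4, the first kinase of the pathway, was 1.43-fold lower (8.79 ± 0.190 FPKM in HET, 12.6 ± 0.833 FPKM in WT, adjusted p = 0.00145), while Irak1 was 1.31-fold lower and Irak3, a brake on the pathway, 2.12-fold lower, the Irak3 call being lost with quantile normalization (-0.12). Traf3ip3 is counted among the 7 lower genes but is a TRAF3-binding protein of lymphocytes that is not known as part of these receptors' signalling. It was 1.93-fold lower, and Traf3ip2 (Act1), the IL-17 receptor adaptor, did not pass (adjusted p = 0.166).

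Of 14 measured genes of the inflammasome list, which release active IL-1beta and IL-18, 10 were lower and 1 higher (median log2 fold change -0.42), or 7 and 3 with median-ratio scaling, with 3 higher without HET replicate 1 and 2 higher without HET replicate 3. The flagellin sensors Naip5 and Naip6 were 2.75-fold and 2.23-fold lower, Naip1 was 1.68-fold lower, and the DNA sensor Aim2 was 3.05-fold lower (0.781 ± 0.217 FPKM in HET, 2.38 ± 0.297 FPKM in WT, limma adjusted p = 0.00097). Naip genes are close paralogs, so the split of fragments among them is uncertain. Casp1, the protease that cleaves both cytokines, was named after its values were seen: it was 1.25-fold lower (74.8 ± 4.98 FPKM in HET, 93.8 ± 1.41 FPKM in WT, adjusted p = 0.00699), a call lost with median-ratio scaling. Nlrp6, an epithelial sensor, was the gene that rose (74.7 ± 4.76 FPKM in HET, 57.2 ± 3.53 FPKM in WT, adjusted p = 0.00603).

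Of 13 measured epithelial genes known to respond to IL-22, 5 were lower, 2 higher and 6 not called, a share of lower calls near that of all tested rows, with 4 higher under median-ratio scaling or quantile normalization. Without WT replicate 2 the count of higher genes was 0, without WT replicate 3 it was 2, and without any 1 of the other 4 libraries it was 1. Reg3a, an antimicrobial lectin, was 1.93-fold lower (55.1 ± 4.06 FPKM in HET, 106 ± 10.4 FPKM in WT, limma adjusted p = 0.000479). The oxidase Duox2 and its maturation factor Duoxa2 were 7.33-fold and 7.47-fold lower, and the phospholipase Pla2g2a was 4.95-fold lower, or 8.50-fold without HET replicate 3. Reg3b did not pass (1752 ± 1696 FPKM in HET, 5213 ± 2984 FPKM in WT, adjusted p = 0.0814), but did without HET replicate 3 or WT replicate 2. Lcn2 and S100a9 were the genes that rose (adjusted p = 0.0274 and 0.0457), and the 2 calls were lost without WT replicate 2 or 3, among other settings. Of 4 measured granulocyte markers, S100a9 among them, 2 were higher and 1 lower in HET. The lower one was Csf3r (0.202 FPKM in HET, 0.776 FPKM in WT, limma adjusted p = 0.00193). The granulocyte list summed to 8.646 to 17.67 FPKM in HET and 4.737 to 5.407 FPKM in WT. Prg2 alone averaged 12.0 FPKM in HET and 3.76 FPKM in WT, while Ly6g and Epx were listed at 0. The part of granulocytes in the S100a9 level was not tested.

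Of 9 measured genes that respond to IL-4 and IL-13 in the mucosa, 7 were lower and 1 higher. Clca1, a secreted goblet cell protein, was 3.49-fold lower (63.0 ± 11.3 FPKM in HET, 220 ± 37.5 FPKM in WT, limma adjusted p = 0.000388), and the cornified envelope genes Sprr2a1 and Sprr2a3, close paralogs whose fragments may be split between them, were 4.40-fold and 5.26-fold lower. The gene that rose was Mcpt1, a protease of mucosal mast cells (33.6 ± 12.99 FPKM in HET, 1.36 ± 0.509 FPKM in WT, adjusted p = 0.000228), one of the 6 mast cell markers that were all higher in HET, and their part in its level was not tested. The cytokines of this group, Il4 and Il13, were listed at 0 or below 0.5 FPKM in every library.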

How the data were processed

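RNA-seq values were analysed for 6 libraries of mouse intestine, 3 per genotype. Per the labels, polyadenylated RNA was selected with oligo(dT) beads for a SMARTER mRNA library kit. FPKM values were deposited by the authors in 1 table with a column per library; the submitters' processing notes name the build GRCm39, and no aligner, counter, annotation or strand setting is given in these sources. Because FPKM is relative to a library's total, abundant genes that differ shift the rest.

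Members were matched by symbol, which the table pairs with Ensembl identifiers. The 14065 rows that reached 0.5 FPKM in any library were fitted with limma 3.58.1 in R 4.3.3 on log2(FPKM + 1), genotype as the only term, eBayes with trend, and Benjamini-Hochberg adjustment over all of them. The fit was tested on simulated data. Rough depth came from the most frequent low value of FPKM times transcript length (GENCODE M21) among genes with 1 transcript, and rough fragments per member from the longest transcript. Exon overlaps also came from GENCODE M21. RefSeq promoter windows were found for 65 members. Every member that reached the floor was named, with values in each library for the alarmins, for called members past 0.5 in log2 size and for some other members. The rest, with the receptor chains Il1rap, Il15ra, Il17ra and Il21r among them, were given as mean ± SD. Up to 4 genes a list were named by their moderated statistic. Members and lists were chosen with earlier results of these data known. Alternatives were other filters, pseudocounts (0.1 and 0.01), scalings, moderation, array weights, the replicate number as a block, and leaving out each library. Python 3.11.15, pandas 2.3.3, numpy 2.4.6 and matplotlib 3.10.9 were used. A marker gene of the innate lymphoid list is not reported here.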

Additional observations from a re-analysis of the deposited data

How the results depend on the processing

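Of the 30 called members, 18 kept their call in every one of the 18 alternatives in which their row was tested: Il1a, Il1b, Il1r1, Il1rl1, Il1rl2, Il1rn, Il2rg, Il6st, Il7r, Il10ra, Il11ra1, Il12rb1, Il12rb2, Il16, Il18, Il27ra, Il33 and Il34. Quantile normalization called 18 members lower (11 receptors) and 2 higher (1 ligand), against 29 (21 receptors), 1 and 0. Members called higher were 2 (1 ligand) without a filter on low values and 3 (1 ligand) with array weights, and leaving out libraries gave 0 to 2 members and 0 to 1 receptors higher, and 25 to 30 members lower. Log2 fold changes without 1 library were -1.39 to -1.09 for Il18 and -1.05 to -0.87 for Il33. Over all tested rows, lower calls were 3223 with median-ratio scaling and 2401 with quantile normalization, and higher calls 3761, 3127 and, with array weights, 2500, or 804 to 1677 without 1 library. The median log2 fold change of all rows was 0.03 with either of these scalings, against -0.14. Signs that turned, none of a called member, were with median-ratio scaling Rnf111 (0.004), Il17ra (0.030), Il15ra (0.082), Il1r2 (0.038) and Il4ra (0.176); with quantile normalization Rnf111 (0.021), Il21r (0.120), Il17rd (0.108), Il20rb (0.117), Il17ra (0.171), Il15ra (0.084), Il1r2 (0.224) and Il4ra (0.086); with array weights Il1r2 (0.167) and Il4ra (0.059); and with a common sum Il4ra (0.027). Without 1 library, log2 fold changes were -0.245 to 0.042 for Il1r2, -0.116 to 0.113 for Il4ra and -0.044 to 0.131 for Il15. The cause was not tested. Same-numbered HET and WT libraries did not deviate together in every case (correlations 0.0031, 0.1245 and 0.2812), and with the replicate number as a block 29 members were lower and 1 higher. Under that block Lcn2 was not called (adjusted p = 0.0632) and Reg3b was (adjusted p = 0.0108), and no other named gene changed its call.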

Other observations

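Without a filter on low values, 29 members under the floor but above 0 somewhere entered the fit, and limma called 4 lower and 1 higher in HET at an adjusted p under 0.05. Over all rows of that fit, at most 25416, 5771 were called lower and 1205 higher. Il18rap, the signalling chain of the IL-18 receptor, averaged 0.207 FPKM in HET and 0.449 FPKM in WT (adjusted p = 0.0066). Il21, Il5 and Il17c averaged 0.0213, 0.00687 and 0.00567 FPKM in HET and 0.0991, 0.0619 and 0.0568 FPKM in WT. Il6 was the member that was higher (0.0781 FPKM in HET, 0.00496 FPKM in WT, adjusted p = 0.0185). Except for Il18rap these levels correspond to few fragments a library.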
